A study of Mus musculus with 4 samples.

Results

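Alveolar macrophages are the resident phagocytes of the lung air spaces, and the genes described here are 10 that are widely used to recognise them: Chil3, Ear1, Ear2, Siglecf, Pparg, Marco, Fabp4, Fabp5, Car4 and Itgax. They were taken from the deposited expression table by their symbol, and all 10 were found among its 24421 rows. The set was chosen by symbol with the FPKM levels and genotype differences of these same files already known, so the values below describe the genes and are not independent evidence about them. The table comes from 4 mice. Mice WT-139 and WT-140 had the genotype Usp25+/+ and are referred to as wild type, and mice KO-826 and KO-850 had the genotype Usp25-/- and are referred to as knockout. Usp25 encodes a ubiquitin-specific protease, and the labels name no promoter or cell type for its deletion. All 4 were C57BL/6 mice of 8 weeks that had been given dextran sulfate sodium (DSS), an agent that injures the gut lining, at 2.5% for 5 days and then plain water for 2 days. The tissue is labelled colon, a piece of 0.5 cm taken close to the anus, and polyadenylated RNA was sequenced. That label is in doubt, because lung surfactant genes were abundant and several defining colon genes were at 0, as given before the results. Levels are FPKM, a fragment number divided by transcript length and by library size, so they can be compared between genes on a scale per length.

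Alveolar macrophages take up and break down surfactant, inhaled particles and dying cells. Granulocyte-macrophage colony-stimulating factor (GM-CSF, gene Csf2) from alveolar epithelium and TGF-beta signalling induce the nuclear receptor PPARgamma in them, and PPARgamma drives genes of lipid uptake and storage. In mice they are usually recognised by high Siglec-F and CD11c on the cell surface, the products of Siglecf and Itgax. Several of these genes are also used by other cells, such as eosinophils (Siglecf and the Ear genes), dendritic cells (Itgax), adipocytes and endothelium (Fabp4), neutrophils and monocytes (Chil3) and colonocytes (Car4).

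Ear1 and Ear2 encode secreted ribonucleases of a family with many close copies, and their sequences are shown because they limit how well the levels of the copies can be told apart. In the Gencode annotation of the mm9 build, Ear1 lies on chromosome 14 from 44396430 to 44397304 on the minus strand and Ear2 from 44680319 to 44681199 on the plus strand. Their relative Ear10 lies between them, from 44500385 to 44501224 on the minus strand. The windows below run from 250 bases before to 50 bases after each gene's start (RefSeq, GRCm38.p6 build: Ear1 at chr14:43819590-43819889, minus strand; Ear2 at chr14:44102404-44102703, plus strand; Ear10 at chr14:43923547-43923846, minus strand). The capitals mark the match to a C/EBP-type motif.
Ear1: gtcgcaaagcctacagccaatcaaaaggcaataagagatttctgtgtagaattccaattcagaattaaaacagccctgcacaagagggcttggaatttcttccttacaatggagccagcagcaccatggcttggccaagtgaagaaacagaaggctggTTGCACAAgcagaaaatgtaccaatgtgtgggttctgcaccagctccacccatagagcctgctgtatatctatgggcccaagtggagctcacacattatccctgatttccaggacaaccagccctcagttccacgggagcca
Ear2: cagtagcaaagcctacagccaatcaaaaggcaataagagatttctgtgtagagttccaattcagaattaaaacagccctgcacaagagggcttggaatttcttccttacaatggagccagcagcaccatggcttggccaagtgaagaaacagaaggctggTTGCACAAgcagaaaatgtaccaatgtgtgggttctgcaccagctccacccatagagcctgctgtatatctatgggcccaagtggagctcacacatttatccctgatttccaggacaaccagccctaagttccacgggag
Ear10: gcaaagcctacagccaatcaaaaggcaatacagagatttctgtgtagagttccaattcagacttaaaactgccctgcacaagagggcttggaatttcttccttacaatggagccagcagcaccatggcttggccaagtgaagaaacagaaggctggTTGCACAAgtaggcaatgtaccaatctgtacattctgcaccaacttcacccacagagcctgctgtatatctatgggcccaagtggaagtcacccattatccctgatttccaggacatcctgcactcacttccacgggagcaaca

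The windows of Ear1 and Ear2 are identical at 294 of 303 aligned positions (97%), and that of Ear10 at 277 of 303 positions to Ear1. Their coding sequences are alike too, with 95.1% identity between Ear1 and Ear2, 94.5% between Ear1 and Ear10 and 97% between Ear2 and Ear10. The marked motif (TTGCNNAA, searched on both strands) starts 92, 90 and 94 bases before the start of Ear1, Ear2 and Ear10. It was also found in a window of Pparg, in none of the other 5 members with a RefSeq window, and in 10.8% of all 32851 windows. Fabp4 and Fabp5 were not in the table of windows. A PPAR-type direct repeat (AGGTCA, 1 base of any kind, then AGGTCA again, both strands) was in no member's window and in 0.0396% of all windows, and a PU.1-type motif (GAGGAAGT, both strands) in no member's window and in 3.2% of all windows. None of the windows of Ear1, Ear2 and Ear10 held either of these, so no overlap between motifs arose there. The motifs were chosen after the windows had been seen, and a match only says that the letters are present.

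Close copies were also measured by cutting each coding sequence into words of 32 bases and looking them up in the mm9 genome. Words found at more than 1 place made up 75.7% for Ear1, 60.7% for Ear2, 74.8% for Fabp5 and 41% for Chil3. They made up 12.2% for Itgax, 1.43% for Siglecf and 0% for Pparg, Marco, Fabp4 and Car4. How the submitters' processing assigned reads that fit several places is not given in the sources used here, so the levels of Ear1, Ear2, Fabp5 and Chil3 are uncertain in that respect. The closest relative of Chil3, Chil4, shares 94.4% of its coding sequence, and in the mm9 annotation the Chil3 gene (named Chi3l3 there, chromosome 3 from 105950472 to 106022425) contains Chil4. Fabp4 and Fabp5 lie 187.7 kb apart on chromosome 3 and share 60.8% of their coding sequence.

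The libraries followed their genotype labels for Usp25, which stood at 38.5 and 16.6 FPKM in wild-type mice and at 2.65 and 1.71 FPKM in knockout mice. Markers of the labelled tissue were uneven. Among 16 colonocyte genes besides Car4, 7 stayed below 1 FPKM in all 4 mice, and the defining genes Aqp8, Cdx1 and Zg16 were listed at 0 in each. Others were present, with Lgals4, a galectin gene, at 7.04 to 70.6 FPKM, the adhesion gene Ceacam1 at 18.4 to 44.2 FPKM and the keratin gene Krt20 at 3.11 to 52.4 FPKM. The 16 genes summed to 65.6 and 51.0 FPKM in wild-type mice and to 253 and 86.6 FPKM in knockout mice, highest in mouse KO-826. Of the 7 that were tested, 6 had higher and 1 lower mean log2 values in knockout mice, against 6484 and 5619 of all 12103 tested genes. The median log2 difference was 2.18 for the 7 and 0.03 over all tested genes, and none of the 7 passed limma's test described below. Their part in the level of Car4 was not tested. The surfactant genes Sftpb and Sftpc, which mark alveolar type II cells, stood at 865 to 3284 FPKM and at 339 to 2596 FPKM. Mouse WT-139 stood apart through neutrophil genes, whose summed level over 13 genes was 47426 FPKM in it and 850 to 2184 FPKM in the other mice. In tissue RNA, fewer cells of a type and less RNA per cell cannot be told apart.

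All 10 members reached at least 10 FPKM in each of the 4 mice, as did 33.9% of the 12103 genes tested. Together they held 1.60% of all FPKM in mouse KO-850, 1.89% in mouse KO-826, 1.40% in mouse WT-139 and 2.01% in mouse WT-140. Chil3 alone made up 75.6% to 83.5% of that sum. Other genes named with alveolar macrophages were present as well. Of 26 such genes, 22 reached 10 FPKM in each mouse and none stayed below 1 FPKM throughout, with Spp1, a secreted phosphoprotein, at 2203 to 8438 FPKM, the tetraspanin gene Cd9 at 1530 to 2608 FPKM, Ctsk, a cysteine protease, at 495 to 1473 FPKM and Wfdc21 at 446 to 2052 FPKM.

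The lists of other cells that use these genes held both genes at or near 0 and genes at higher levels. The markers named here at or near 0 were chosen after their values were seen. Among 8 eosinophil genes that are not members, the granule genes Epx and Prg2 reached at most 0.211 and 0.663 FPKM, Prg3 was listed at 0 in every mouse and the eosinophil chemokine receptor gene Ccr3 reached at most 0.246 FPKM. The 8 genes summed to 6.10 to 10.6 FPKM, 6 of them stayed below 1 FPKM in all mice, and Ear6 and Alox15 made up most of the rest. Among 10 adipocyte genes, Lep was listed at 0 and Adipoq reached at most 0.309 FPKM. The highest of them on average was Lipe, a lipase gene, at 4.51 to 8.41 FPKM, and the list summed to 14.7 to 17.3 FPKM. Among 11 dendritic cell genes, Flt3 and Xcr1 reached at most 0.969 and 0.573 FPKM. The highest on average were the factor gene Irf8 at 9.39 to 28.7 FPKM and the chemokine receptor gene Ccr7, which reached 16.2 FPKM, and the list summed to 22.7 to 53.1 FPKM. Of 9 squamous and basal epithelium genes, which mark cells that also use Fabp5, Sprr1a stood at 12.3 to 65.0 FPKM, Krt5 and Krt14 reached 19.0 and 25.6 FPKM in mouse WT-139, and the list summed to 15.6 to 70.0 FPKM. Endothelial genes were higher, with 8 of 13 at 10 FPKM or more in each mouse and a sum of 167 to 437 FPKM, and Pecam1, an endothelial adhesion gene, stood at 22.6 to 56.6 FPKM. How much of Fabp4 and Car4 came from endothelium was not tested.

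**Figure D1:**
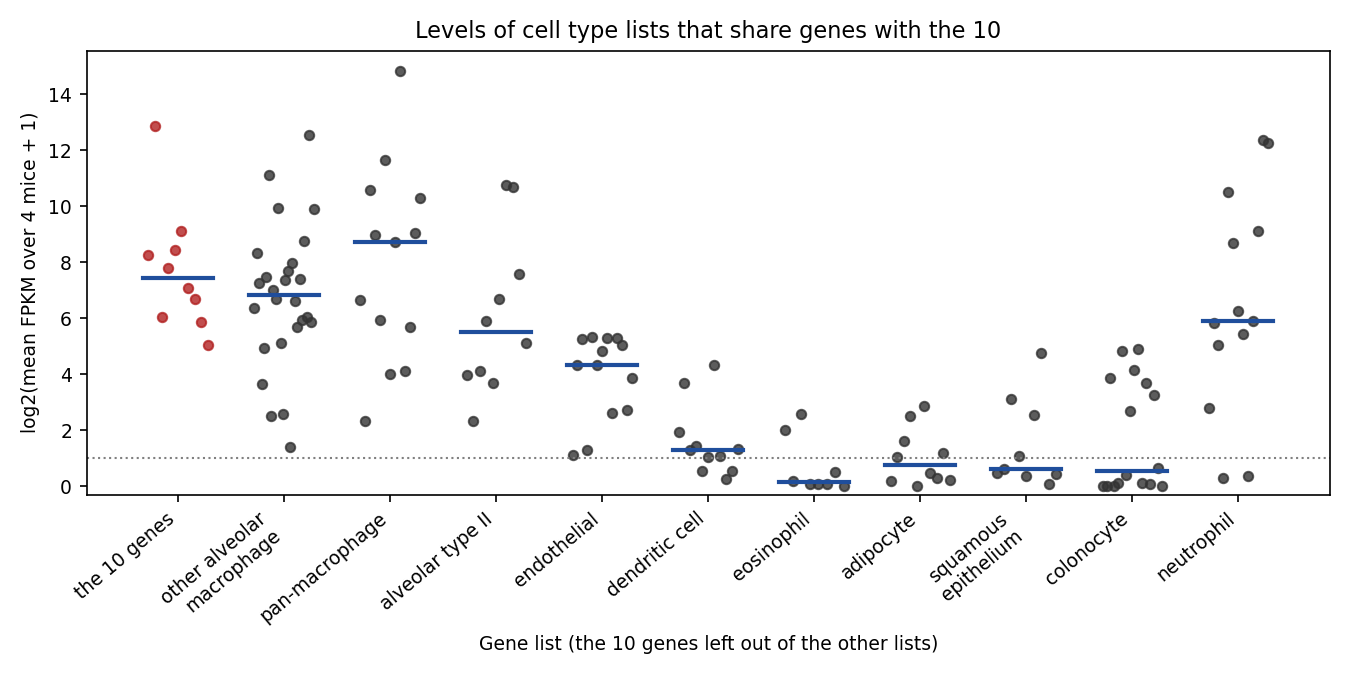
Mean level of each gene over the 4 mice, drawn vertically as log2(mean FPKM + 1), each gene being a point, lists along the horizontal axis and the list median as a bar. The dotted line marks 1 FPKM, below which 6 of 8 eosinophil genes stayed in all mice, whereas the 10 members all stand above it.

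Pparg, on chromosome 6 from 115311239 to 115440419 (mm9, plus strand), encodes the nuclear receptor at the centre of the group. It stood at 27.4 and 54.3 FPKM in mice WT-139 and WT-140 and at 80.4 and 66.6 FPKM in mice KO-826 and KO-850. The genotypes did not overlap, and Pparg was the only member higher in both knockouts than in both wild types, as 19.0% of all tested genes were. The means were 40.9 ± 19.0 against 73.5 ± 9.76 FPKM (SD, n = 2 in each group), and the log2 difference was 0.90 ± 0.42 (SE). The lowest value was that of mouse WT-139, and without it the difference was 0.42.

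The signals that act on Pparg were listed apart from it. Csf2, the gene of GM-CSF, stood at 6.35 and 2.60 FPKM in wild-type mice and at 48.0 and 3.42 FPKM in knockout mice, high in mouse KO-826 only. The receptor chains Csf2ra and Csf2rb stood at 88.2 to 193 FPKM and at 68.0 to 153 FPKM over the 4 mice, and Csf2rb was lower in both knockouts (153 and 95.3 against 91.4 and 68.0 FPKM). Spi1, the gene of the myeloid factor PU.1, was also lower in both, at 185 and 243 FPKM against 110 and 148 FPKM. The factor gene Cebpb was higher in both, at 127 and 199.9 FPKM against 246 and 208 FPKM, whereas Rxra, which encodes the partner of PPARgamma on DNA, overlapped at 13.3 to 31.1 FPKM. Of the 13 tested genes of this list none passed the test described below. Both knockouts were lower in 2 of the 13 and higher in 1, against 14.7% and 19.0% of all tested genes. By mean log2 value 4 were higher and 9 lower in knockout mice, against 6484 and 5619 of all 12103 tested genes. The median log2 difference was -0.09 against 0.03 over all tested genes.

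Target and lipid genes of PPARgamma had lower mean levels in knockout mice more often than higher ones. Of 13 tested genes besides Fabp4, none passed the test. By mean log2 value 3 were higher and 10 lower in knockout mice, against 6484 and 5619 of all 12103 tested genes. The median difference of the 13 was -0.33, against 0.03 over all tested genes. In 5 of the 13 the genotypes did not overlap with lower values in knockout mice, against 14.7% of all tested genes, and the 5 were Plin2, Lpl, Cd36, Acadl and Scd1. Some other macrophage lists leaned the same way. Pan-macrophage genes had 4 higher and 9 lower, with 3 lower without overlap. Scavenger receptor genes besides Marco had 3 higher and 7 lower, with 4 lower without overlap. The other 26 alveolar macrophage genes had 14 higher and 12 lower, with 4 lower without overlap. The lists share genes, among them Cd36. Plin2, which coats lipid droplets, stood at 719 and 792 FPKM against 675 and 704 FPKM. Lpl, a lipase, stood at 296 and 273 FPKM against 179 and 257 FPKM. Cd36, a receptor for fatty acids and oxidised lipoprotein, stood at 223 and 184 FPKM against 137 and 169.6 FPKM. Both genotype comparisons rest on the same 4 mice.

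Siglecf, Itgax and Marco encode surface proteins. Siglecf (named Siglec5 in the mm9 annotation, chromosome 7 from 50606711 to 50614901, plus strand) encodes a lectin that binds sialic acid. It stood at 29.2 and 48.9 FPKM in wild-type mice and at 26.5 and 21.9 FPKM in knockout mice, with a log2 difference of -0.63 ± 0.36. It was the only member lower in both knockouts than in both wild types, as 14.7% of all tested genes were, with a narrow gap between mice WT-139 and KO-826. It was the lowest of the 10 on the FPKM scale when averaged over the mice. Among its relatives, Cd33 and Siglece reached 185 and 87.7 FPKM in mouse WT-139 but 27.5 to 39.4 and 3.37 to 3.98 FPKM in the others. Siglec1 stood at 13.2 to 35.0 FPKM, Cd22 at 7.93 to 28.1 FPKM and Mag at 1.81 to 7.62 FPKM. Cd33 and Siglec1 were also lower in both knockouts than in both wild types, with log2 differences of -1.57 and -0.84. Of the 5 tested relatives 1 had a higher and 4 a lower mean log2 value in knockout mice, against 6484 and 5619 of all 12103 tested genes.

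Itgax, on the same chromosome from 135273061 to 135294171 (plus strand), encodes the integrin chain CD11c. It stood at 96.1 and 208 FPKM in wild-type mice and at 99.4 and 140 FPKM in knockout mice, so the groups overlapped and mouse WT-140 was the highest. The log2 difference was -0.26 ± 0.48. Its partner chain Itgb2 stood at 466 and 587 FPKM in wild-type mice and at 317 and 377 FPKM in knockout mice. The related chain Itgam, common on neutrophils and monocytes, reached 268 FPKM in mouse WT-139 but 14.2 to 17.2 FPKM in the other 3, so the ratio of Itgax to Itgam was 0.358 in mouse WT-139 and 6.54 to 14.7 in the others. The integrin chain gene Itgal stood at 34.1 and 21.3 FPKM in wild-type mice and at 14.3 and 21.2 FPKM in knockout mice. Itgb2 and Itgal were thus lower in both knockouts, as 14.7% of all tested genes were, Itgal by a narrow gap. Of the 3 tested genes of this family besides Itgax, 3 had a lower mean log2 value in knockout mice, against 5619 of all 12103 tested genes.

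Marco, on chromosome 1 from 122371115 to 122401661 (minus strand), encodes a scavenger receptor for bacteria and particles. It split each genotype, with 170 and 56.2 FPKM in wild-type mice and 141 and 39.3 FPKM in knockout mice. Mice WT-139 and KO-826 were high and mice WT-140 and KO-850 low, a 4.33-fold span from lowest to highest. The log2 difference was -0.39 ± 0.80, and it had the opposite sign without mouse WT-139 (0.40) and without mouse KO-850 (0.52). The scavenger receptor gene Msr1 varied less, at 55.4 and 57.3 FPKM in wild-type mice and at 38.2 and 44.9 FPKM in knockout mice. It was lower in both knockouts, as 14.7% of all tested genes were. The ratio of Marco to Msr1 was 3.07 and 3.70 in mice WT-139 and KO-826 and 0.981 and 0.875 in mice WT-140 and KO-850.

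Chil3, Ear1 and Ear2 encode secreted proteins. Chil3 encodes Ym1, a chitinase-like lectin without chitinase activity. It stood at 6219 and 8777 FPKM in wild-type mice and at 8882 and 6380.1 FPKM in knockout mice, and ranked from 5 to 8 among all genes of each library. The groups overlapped, with means of 7498 ± 1809 and 7631 ± 1769 FPKM, a log2 difference of 0.03 ± 0.55 and the narrowest span of the 10, 1.43-fold. Neutrophils also express Chil3, and it was lowest in mouse WT-139, which had the highest levels of all 11 tested neutrophil genes. The part of neutrophils in the level of Chil3 was not tested. The relative Chil1 was highest in mouse WT-139, with 543 FPKM in it and 39.3 to 67.1 FPKM in the others. Chil4, the closest copy, stood at 18.2 to 28.4 FPKM, and Chit1, a chitinase gene, at 0.250 to 1.90 FPKM. Other genes counted with alternative macrophage activation were lower than Chil3, with the mannose receptor gene Mrc1 at 149 to 193 FPKM, Retnla at 69.1 to 138.7 FPKM and Arg1, an arginase gene, at 45.2 to 213 FPKM.

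Ear2 stood at 97.0 and 369 FPKM in wild-type mice and at 218 and 204 FPKM in knockout mice, so both knockout values lay between the wild-type values. Ear1 had 45.6 and 82.6 FPKM in the wild types and 80.9 and 50.8 FPKM in the knockouts. The log2 differences were 0.16 ± 0.67 and 0.06 ± 0.44, and both had the opposite sign without mouse WT-139 (-0.80 and -0.36). The copies Ear3 and Ear10 put the mice in the same order as Ear1 and Ear2, which from lowest to highest was WT-139, KO-850, KO-826 and WT-140, as 6.11% of all tested genes did. Ear3 stood at 591 and 2908 FPKM in wild-type mice and at 1802 and 1764 FPKM in knockout mice, 6.09 to 8.64 times Ear2. Ear10 stood at 15.5 and 48.8 FPKM against 41.4 and 30.6 FPKM. Ear7 (24.0 to 65.5 FPKM), Ear12 (2.56 to 15.98 FPKM), Ear6 (2.83 to 6.63 FPKM), Rnase2a (1.71 to 3.999 FPKM) and Rnase2b (0.666 to 13.4 FPKM) put the mice in other orders. Ear1, Ear2 and Ear10 share sequence as shown above, whereas the sequence of Ear3 was not examined. The part of shared reads in this common order was not tested.

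**Figure D2:**
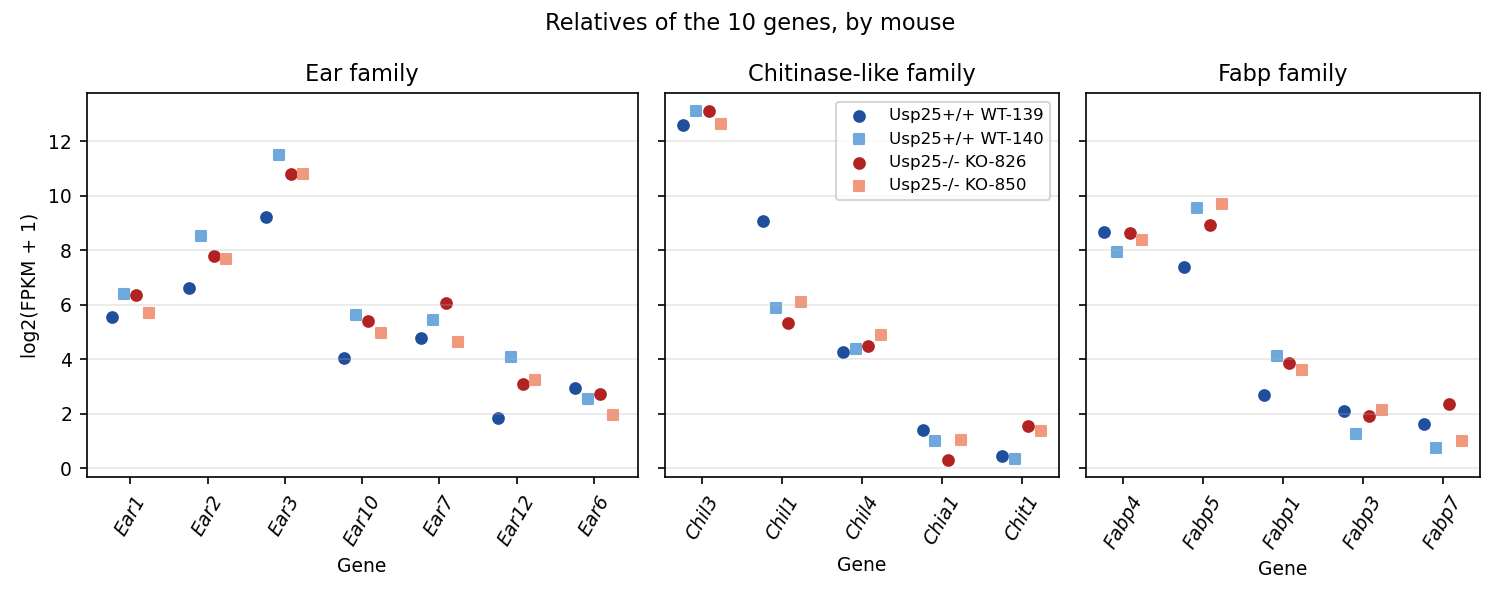
Levels of Ear1, Ear2, Chil3, Fabp4, Fabp5 and their relatives, drawn as log2(FPKM + 1) against the gene, each mouse being a separate point. Ear3 stands above Ear1 and Ear2 in every mouse, and Chil1 reaches 543 FPKM in mouse WT-139 against 39.3 to 67.1 FPKM in the others.

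Fabp4 and Fabp5 encode proteins that carry fatty acids within the cell, and they put the mice in different orders. Fabp4, on chromosome 3 from 10204347 to 10208576 (minus strand), stood at 403 and 244 FPKM in wild-type mice and at 394 and 329 FPKM in knockout mice, highest in mouse WT-139. Fabp5, from 10012548 to 10016607 (plus strand), stood at 165 and 745 FPKM against 484 and 835 FPKM, lowest in mouse WT-139 and with the widest span of the 10, 5.07-fold. The ratio of Fabp5 to Fabp4 was 0.409 in mouse WT-139, 3.05 in mouse WT-140, 1.23 in mouse KO-826 and 2.54 in mouse KO-850. The genotypes overlapped for both genes, with log2 differences of 0.20 ± 0.40 for Fabp4 and 0.86 ± 0.79 for Fabp5. Without mouse WT-139 that of Fabp5 was -0.23, and without mouse WT-140 that of Fabp4 was -0.16. Fabp1, the liver and gut form, stood at 5.45 to 16.4 FPKM, Fabp2, the intestinal form, reached at most 1.28 FPKM, Fabp3 stood at 1.42 to 3.42 FPKM and Fabp7 at 0.678 to 4.10 FPKM.

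Car4, on chromosome 11 from 84771288 to 84779546 (plus strand), encodes a carbonic anhydrase anchored on the cell surface. It stood at 193 and 399 FPKM in wild-type mice and at 277 and 367 FPKM in knockout mice, with overlapping groups and a log2 difference of 0.20 ± 0.47. Mouse WT-139 was the lowest and mouse WT-140 the highest. The carbonic anhydrase genes Car1 and Car2 are on the colonocyte list together with Car4. Car1 was listed at 0 in 3 mice and at 0.0509 FPKM in mouse WT-139, whereas Car2 stood at 4.32 to 23.9 FPKM. Of the other carbonic anhydrases, Car13 (10.3 to 21.5 FPKM) and Car9 (2.92 to 26.4 FPKM) were the highest on average. The part of colonocytes in the level of Car4 was not tested.

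**Figure D3:**
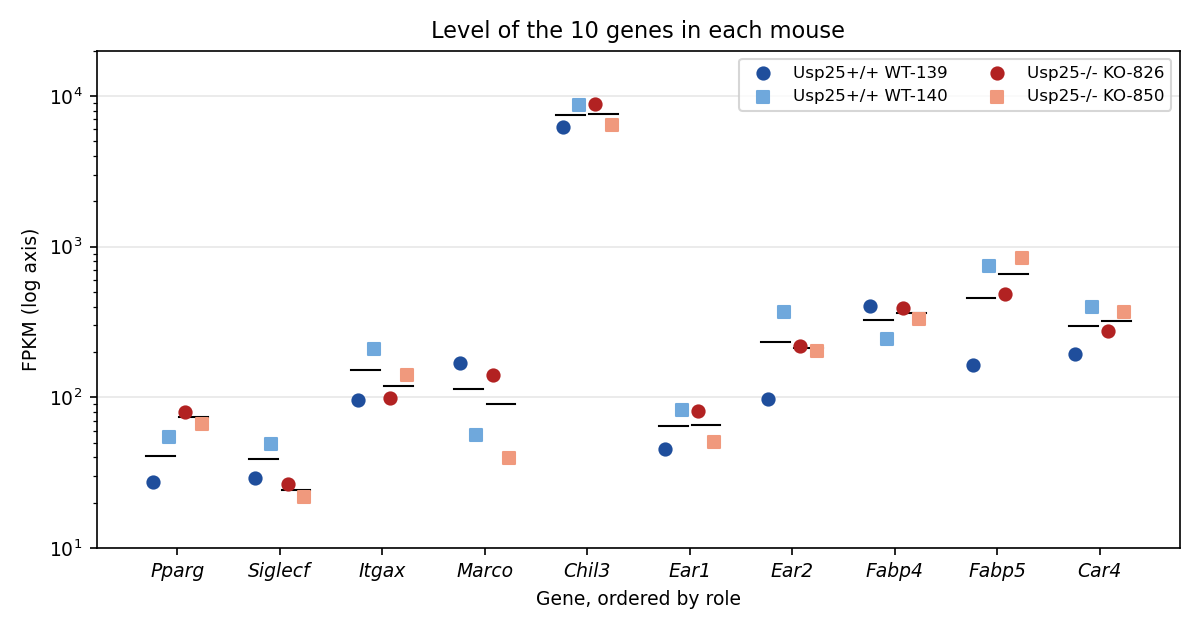
FPKM of the 10 genes in each mouse on a log axis, with 1 point for each mouse and a bar at the mean of each genotype. Pparg is the only gene with both knockouts above both wild types, Siglecf the only one with both below, and Chil3 lies between 6219 and 8882 FPKM.

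Most members were low in mouse WT-139, with Marco and Fabp4 high instead. Mouse WT-139 had the lowest value for 7 of the 10, namely Chil3, Ear1, Ear2, Pparg, Fabp5, Car4 and Itgax, where 39.2% of all tested genes were lowest in it. Marco and Fabp4 were highest in it, and Siglecf was in between. Mouse WT-140 had the highest value for 5 of the 10, namely Ear1, Ear2, Siglecf, Car4 and Itgax, against 27.2% of all tested genes. Against its own mean over the 4 mice, the median member stood at -0.44 in mouse WT-139, 0.41 in mouse WT-140, 0.18 in mouse KO-826 and 0.00 in mouse KO-850 on the log2 scale. The other 26 alveolar macrophage genes had medians of -0.41, 0.41, -0.05 and 0.05 in that order of mice, and the 13 pan-macrophage genes medians of -0.24, 0.32, -0.05 and 0.00. Interstitial and gut macrophage genes, led by Apoe at 253 to 758 FPKM, had medians of -0.36, 0.29, 0.11 and -0.0012. Endothelial genes, which mark cells that also use Fabp4 and Car4, were likewise low in mouse WT-139 and high in mouse WT-140, with medians of -0.58, 0.65, -0.59 and 0.41. Neutrophil genes, led by S100a8 at 382 to 19444 FPKM, had medians of 3.28, -1.58, -0.57 and -1.28 in the same mice. Monocyte genes had medians of 1.36, -0.63, -0.39 and -0.26, and 7 of the 10 tested were highest in mouse WT-139, against 3590 of all 12103 tested genes. Ly6c1 was lowest in mouse WT-139, and Fn1 was highest in mouse WT-140. Plac8, the highest of them on average, stood at 483 FPKM in mouse WT-139, 465 FPKM in mouse KO-826, 125 FPKM in mouse KO-850 and 44.9 FPKM in mouse WT-140. The part of endothelial, neutrophil and monocyte genes in the member levels of mice WT-139 and WT-140 was not tested.

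**Figure D4:**
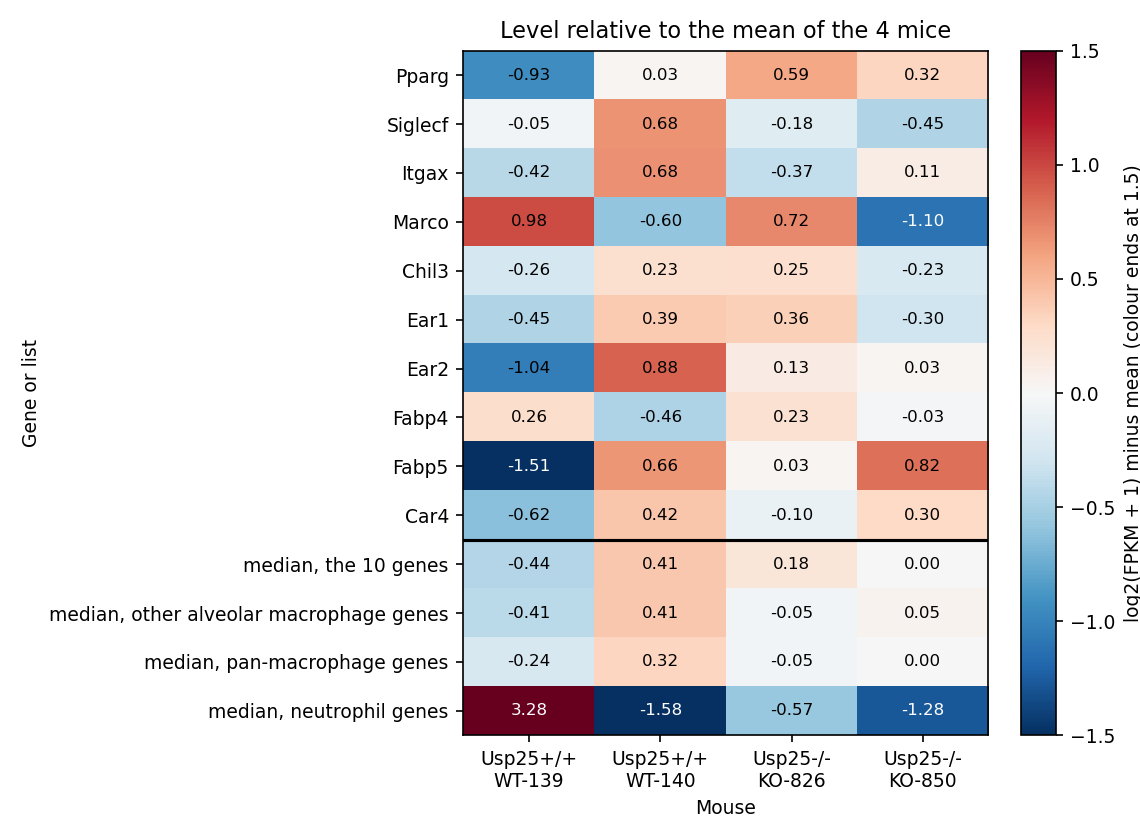
Difference of each gene's log2(FPKM + 1) from its mean over the 4 mice, with genes and list medians in rows and mice in columns. Mouse WT-139 is lowest for 7 of the 10 genes and highest for Marco and Fabp4, and its median neutrophil gene stands 3.28 above the mean.

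Measured against the pan-macrophage genes, the members differed between the genotypes by about the spread within them, and on which side of it depended on the genes in the list. The median member minus the median pan-macrophage gene, each gene centred on its own mean, was -0.19 and 0.08 in wild-type mice and 0.22 and 0.003 in knockout mice, on the log2 scale. The difference between genotypes was 0.17, with a spread within genotypes of 0.18 (SD). Without Cd14, Lyz2 and Tyrobp in the list it was 0.26, slightly above a spread of 0.25. Among 5315 other genes with a mean of at least 10 FPKM, the 5 with the smallest distance to the mean pattern of the 10 members over the 4 mice were Tbcb, Mrpl55, Yipf1, Mrpl48 and D8Ertd738e, at Euclidean distances of 0.0125 to 0.0509 on the log2 scale. The 5 were chosen as the closest of these genes, so their distances are a description only. The members lay at 0.247 (Chil3) to 2.03 (Marco) from their own mean pattern.

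No member passed the test between the genotypes, and neither did any other gene. Limma's moderated test on log2(FPKM + 1), with Benjamini-Hochberg adjustment, called 0 of 12103 genes (0%) at 0.05, and 400 genes (3.30%) had an unadjusted p under 0.05, none of them a member. Adjusted p-values of the members ran from 0.968 to 0.998, which does not show that their levels were alike. For 1 gene alone, exact permutation of 2 against 2 mice gives no p below 0.333. By mean log2 value 7 members were higher and 3 lower in knockout mice, with a median difference of 0.11, against 0.03 over all tested genes. Without mouse WT-139, 3 members were higher and 7 lower, with a median of -0.27, and 50.9% of all tested genes were then lower in knockout mice. Without mouse WT-140 limma called 163 of 11793 genes (1.38%), again none of the members. Only Siglecf and Pparg kept their sign with each of the 4 mice left out in turn. Their genotypes did not overlap, which fixes the sign whichever mouse is left out, so this adds no further evidence. Over all tested genes 19.0% were higher and 14.7% lower in knockout mice without overlap, and those keep their sign too.

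**Figure D5:**
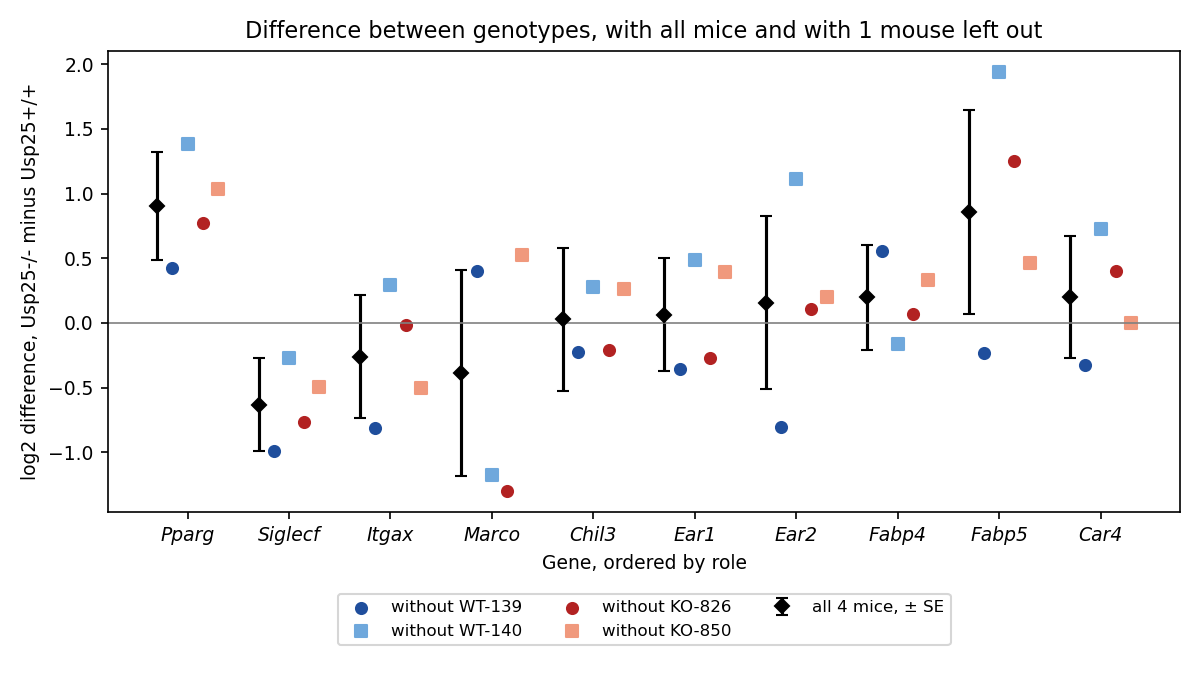
Log2 difference of each gene between knockout and wild-type mice, with all 4 mice (diamonds, ± SE) and with 1 mouse left out at a time (points). Pparg stays above 0 and Siglecf below 0 in each setting, whereas the other 8 genes cross 0. The signs of Pparg and Siglecf are fixed by their lack of overlap between genotypes.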

How the data were processed

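The authors deposited 1 table of FPKM values with a column for each of 4 mice. Per the submitters' processing notes, Bowtie 0.12.2 and the build mm9 were used. Not given in the sources used here were the tool that computed FPKM, the annotation, strandedness and filters. FPKM holds no read totals, so sequencing depth is unknown and counting intervals could not be made. Columns sum to 526652 to 565645.

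Rows with symbols turned into dates (27) were left out, leaving 24394 genes. Genes with an FPKM of at least 1 in at least 2 mice were tested (12103), as log2(FPKM + 1), which understates changes at low levels. The 2 genotypes were compared, knockout minus wild type, with limma 3.58.1 in R 4.3.3 with a mean-variance trend, two-sided, without a block. The fit was tested on simulated data, and with so few mice modest changes can go uncalled. The labels do not say that the mice came from separate litters or cages, so p-values measure only the spread between them. The members and all lists were chosen with earlier results of these data known. The rule for named genes allowed up to 4 from each list, by the highest mean FPKM, and relatives at a mean of at least 1 FPKM; not all of these are printed. Other genes, among them all defining markers at or near 0, were chosen after their values were seen. The measure against pan-macrophage genes was defined after the values were seen. Positions come from Gencode for mm9, in which all 10 members were placed (Chil3 and Siglecf by older symbols). Identity came from a global alignment (Biopython 1.88). Alternatives covered the pseudocount, filter, scaling, variance model and leaving out each mouse.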

Additional observations from a re-analysis of the deposited data

How the results depend on the processing

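With 11 other settings for each of the 10 genes, 97 of 110 differences kept their sign and 13 did not. No member passed limma's adjusted threshold in any of them (smallest adjusted p 0.0913, without mouse WT-140). Changes of filter and of variance model cannot alter a log2 difference, so the signs kept in those settings were fixed in advance. The sign changed for 6 genes without mouse WT-139 and for 2 genes each without mouse WT-140, KO-826 or KO-850. With median-of-ratios scaling 1 gene changed sign, Chil3, at -0.0061. With each mouse left out in turn the log2 difference ran from -0.22 to 0.28 for Chil3 (below 0 without WT-139 or KO-826), from -0.36 to 0.48 for Ear1 (below 0 without WT-139 or KO-826), from -0.80 to 1.11 for Ear2 and from -0.23 to 1.94 for Fabp5 (both below 0 without WT-139), from -0.32 to 0.72 for Car4 (below 0 without WT-139, and at -0.0019 without KO-850), from -1.30 to 0.52 for Marco (above 0 without WT-139 or KO-850), from -0.16 to 0.56 for Fabp4 (below 0 without WT-140) and from -0.81 to 0.29 for Itgax (above 0 without WT-140). Pparg stayed above 0 (0.42 to 1.38) and Siglecf below it (-0.99 to -0.27), which their lack of overlap between genotypes fixes in advance. Genes called over the whole table numbered 0 in all settings but 1, and leaving out a mouse gave 0 to 163, the 163 without mouse WT-140; unadjusted p under 0.05 held for 111 to 2631 genes there and for 249 to 571 in the other settings. The median member difference ran from -0.27 to 0.39 with a mouse left out and from 0.08 to 0.11 otherwise. The difference against pan-macrophage genes was 0.26 (spread within genotypes 0.25) without Cd14, Lyz2 and Tyrobp, and -0.012 (spread 0.43) with levels not centred, an alternative chosen after seeing the data. The cause was not tested. No paired analysis was possible because the labels give no litter, batch or pairing of the mice. Depth is unknown and limits low genes most.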
